A study of Mus musculus with 27 samples.

Results

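The germline genes followed here through the mouse pluripotent states of the study were 10 of the 23604 genes with a row of expression values, namely Dazl, Mael, Sycp3, Tex101, Slc25a31, Asz1, Stk31, Ddx4, Tuba3a and Tuba3b. They were taken by name, chosen by measured values, as genes whose RNA was known from earlier results of the same data to be present in naive or early post-implantation cultures and near 0 in formative and primed lines, with methylated promoters in the formative line. The low values in formative and primed cells and the high promoter methylation are therefore a description and carry no test. Promoter methylation was measured in formative cells alone, so its level at the same promoters in the cultures that hold the RNA was not analysed here. All 10 were found in the expression table and among the annotated promoters, and 8 passed a filter of at least 1 FPKM (fragments scaled to transcript length and to the mapped fragments of the library) in at least 2 libraries. Tex101 and Asz1 did not pass, and Asz1 stayed under 1 FPKM in all 19 RNA libraries, so that its low value in formative cells is not a fall from a well expressed state.

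The study derived formative pluripotent stem cells (fPSCs) and set them beside naive mouse embryonic stem cells (mESCs), epiblast-like cells (EpiLCs) and primed epiblast stem cells (EpiSCs). All samples were labelled wild type stem cells, but some of the source lines named below carry reporters by the paper. These are Sox1-GFP in 46C, Blimp1 and Stella reporters in BVSC and a tdTomato reporter in ROSAmT/mG. The 2 mESC libraries came from feeder-free culture in 2i with LIF, the 2 EpiLC libraries from N2B27 medium with Activin A, bFgf2 and knockout serum replacement, and the 2 EpiSC libraries from cells kept on mouse embryonic fibroblast feeders with XAV939, an inhibitor of Wnt/β-catenin activity. Epiblastoids, which are mESCs grown in three-dimensional Matrigel under EpiLC conditions, gave 1 library each at days 2, 3 and 4. The earlier days gave rosettes. By the paper, the cells of the last day are irregular colonies, after polarity was lost and some cells had migrated out. The fPSCs were propagated in Matrigel with Activin A, bFgf2 and XAV939, and the 7 established libraries were passages 10, 20 and 30 of the CMT line, made by a total RNA protocol, and the CMT line at passage 11, ROSAmT/mG at passage 12, BVSC at passage 14 and 46C at passage 24, all made with the NEBNext Ultra kit. By the paper, the CMT fPSCs at passage 11 had been cryopreserved. A further fPSC library was taken from the CMT line at passage 1, and 2 came from fPSCs derived from E5.5 and E6.5 epiblasts, both at passage 10. These are lines of the same kind of cell and not separate animals, and the 4 established CMT libraries share 1 line of origin.

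Germline genes are read in developing germ cells and kept off in somatic tissues. Many have CpG-rich promoters that gain DNA methylation after implantation, laid down by Dnmt3a and Dnmt3b and copied at cell division by Dnmt1 with Uhrf1, and they are an exception among CpG-rich promoters, most of which stay free of methylation. A non-canonical polycomb complex, PRC1.6, which contains E2f6 and the Mga and Max pair, is known to bind a subset of them through an E2F-type site and an E-box and to hold them down.

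Of the 10 promoters 6 are printed, since they carry the motifs and the CpG-rich sequence to which the later values refer. Each runs 5′ to 3′ on the strand of its gene, from 250 bases before to 50 bases after the annotated gene start, in build mm9. Capitals mark the E2F-type letters GCGGGA, which read TCCCGC on the other strand, and the E-box letters CACGTG, which reads the same on both strands. Mael, Sycp3, Slc25a31 and Ddx4 are shown because they hold both motifs, Tuba3a because it had the highest RNA level of the 10 and holds the E2F-type letters alone, and Dazl because it holds neither in this window and has an unmethylated stretch further into the gene. The 300 bases held 38 CpG in Ddx4, 30 in Dazl, 24 in Mael, 21 in Slc25a31, 15 in Tuba3a and 13 in Sycp3.
Mael (chr1:168168826-168169125, minus strand): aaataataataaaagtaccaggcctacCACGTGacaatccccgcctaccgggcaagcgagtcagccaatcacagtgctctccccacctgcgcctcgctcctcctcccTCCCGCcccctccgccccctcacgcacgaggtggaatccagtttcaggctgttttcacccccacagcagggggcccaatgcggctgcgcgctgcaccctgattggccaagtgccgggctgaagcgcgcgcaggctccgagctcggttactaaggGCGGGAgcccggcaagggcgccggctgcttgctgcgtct
Sycp3 (chr10:87922064-87922363, plus strand): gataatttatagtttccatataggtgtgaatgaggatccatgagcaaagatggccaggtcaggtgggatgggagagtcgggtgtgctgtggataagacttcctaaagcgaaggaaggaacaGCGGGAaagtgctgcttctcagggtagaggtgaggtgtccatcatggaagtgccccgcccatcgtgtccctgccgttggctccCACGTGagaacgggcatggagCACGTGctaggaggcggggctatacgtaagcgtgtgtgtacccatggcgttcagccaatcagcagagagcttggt
Slc25a31 (chr3:40512527-40512826, plus strand): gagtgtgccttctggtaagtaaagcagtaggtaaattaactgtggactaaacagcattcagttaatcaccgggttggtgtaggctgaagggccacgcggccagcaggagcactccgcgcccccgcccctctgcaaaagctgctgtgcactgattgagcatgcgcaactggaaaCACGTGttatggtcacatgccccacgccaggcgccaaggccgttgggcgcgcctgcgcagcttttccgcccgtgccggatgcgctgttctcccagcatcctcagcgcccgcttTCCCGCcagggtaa
Ddx4 (chr13:113442469-113442768, minus strand): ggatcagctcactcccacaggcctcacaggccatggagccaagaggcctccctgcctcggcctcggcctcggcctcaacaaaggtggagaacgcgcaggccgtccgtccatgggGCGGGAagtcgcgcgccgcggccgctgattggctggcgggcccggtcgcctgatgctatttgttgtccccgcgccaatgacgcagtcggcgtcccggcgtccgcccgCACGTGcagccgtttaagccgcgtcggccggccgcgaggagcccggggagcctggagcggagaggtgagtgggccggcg
Tuba3a (chr6:125236011-125236310, minus strand): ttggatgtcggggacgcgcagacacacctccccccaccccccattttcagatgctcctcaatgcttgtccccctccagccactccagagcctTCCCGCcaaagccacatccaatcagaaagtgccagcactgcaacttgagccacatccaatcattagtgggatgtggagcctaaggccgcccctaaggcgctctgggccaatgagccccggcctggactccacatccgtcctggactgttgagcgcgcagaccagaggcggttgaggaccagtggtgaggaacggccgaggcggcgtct
Dazl (chr17:50432875-50433174, minus strand): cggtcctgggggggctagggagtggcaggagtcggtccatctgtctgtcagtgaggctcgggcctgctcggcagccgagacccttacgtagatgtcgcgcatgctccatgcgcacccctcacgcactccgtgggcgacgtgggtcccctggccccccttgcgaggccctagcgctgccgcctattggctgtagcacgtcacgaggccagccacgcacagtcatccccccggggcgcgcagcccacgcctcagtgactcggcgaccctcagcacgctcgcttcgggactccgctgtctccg

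Across the 19 RNA libraries the number of genes at 1 FPKM or more lay between 10034 and 10933, and replicates of 1 group correlated at Pearson's r of 0.964 to 0.994 across genes on the log2(FPKM + 1) scale. FPKM keep no read count, so the depth of each library is unknown, and several members were listed at exactly 0. The labels were checked against marker lists. The 6 naive markers summed to 2640 and 3200 FPKM in mESCs, to 319 and 667 in EpiLCs, to 1.65 and 2.01 in EpiSCs and to at most 2.15 in the 7 fPSC libraries, and Dppa5a made up most of what was left in EpiLCs. The 10 fibroblast markers summed to 206 and 277 FPKM in the feeder-grown EpiSCs, none of them at 0, and to at most 26.1 elsewhere, and the part of feeder RNA in the EpiSC values was not tested. In such bulk samples fewer cells of a type and less RNA per cell cannot be told apart.

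Dazl and Ddx4 encode RNA-binding proteins of the germ line. Dazl, which binds messenger RNA and is needed for germ cells to enter gametogenesis, stood at 20.9 and 36.4 FPKM in mESCs and at 5.59 and 2.96 FPKM in EpiLCs. In Epiblastoids it was at 2.62, 0.807 and 0.0185 FPKM on days 2, 3 and 4, and at 0.884 FPKM in fPSCs at passage 1. It was listed at 0 in all 7 established fPSC libraries and in both EpiSC libraries, and E5.5 epiblast-derived fPSCs gave 0.0242 FPKM. The mESC values thus lay above every other library, and EpiLCs and mESCs did not overlap. Ddx4, the DEAD-box RNA helicase known as Vasa, had its highest values elsewhere. It was at 5.90 and 6.66 FPKM in EpiLCs, at 4.21 and 4.31 FPKM in Epiblastoids on days 2 and 3, and at 1.40 and 0.982 FPKM in mESCs. The passage 1 fPSCs held 2.69 FPKM, above both mESC libraries, while the 7 established libraries ran from 0 through a median of 0.0223 to 0.0602 FPKM and the EpiSCs gave 0 and 0.0451 FPKM.

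Mael and Asz1 act in the piRNA pathway, which silences transposons in male germ cells. Mael gave 1.47 and 1.60 FPKM in mESCs against 18.7 and 26.3 FPKM in EpiLCs. It then stepped through 15.3, 6.97 and 0.215 FPKM in Epiblastoids on days 2 to 4, with 5.60 FPKM at passage 1, and was listed at 0 in all 7 established fPSC libraries, both epiblast-derived ones and both EpiSC libraries. Asz1, a protein of the mitochondrial surface in germ cells, was low throughout. It was at 0.475 and 0.490 FPKM in mESCs, 0 and 0.166 FPKM in EpiLCs, 0.0611 and 0.0841 FPKM in Epiblastoids on days 2 and 3, and 0 in every other library.

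Sycp3, a structural protein of the axial and lateral elements of the synaptonemal complex in meiosis, was at 0.910 and 2.79 FPKM in mESCs and at 5.24 and 5.32 FPKM in EpiLCs. Epiblastoids held 2.89, 3.33 and 0.109 FPKM on days 2, 3 and 4 and passage 1 fPSCs held 2.42 FPKM. It gave the highest single value of any member in the 7 fPSC libraries, which ran from 0 to 0.333 FPKM with a median of 0.0736, and stood at 0.192 and 0.0524 FPKM in EpiSCs. The 2 highest fPSC values came from 46C and ROSAmT/mG, at 0.327 and 0.333 FPKM. Stk31, a protein with a tudor domain and a kinase-like domain found in germ cells, was at 4.49 and 3.61 FPKM in mESCs, 1.99 and 2.07 FPKM in EpiLCs and 1.49, 0.946 and 0.0920 FPKM in the Epiblastoids by day. Passage 1 fPSCs held 0.389 FPKM. Of the 7 established libraries, 6 listed it at 0 and BVSC gave 0.0849 FPKM, and both EpiSC libraries listed it at 0.

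Slc25a31, the ADP/ATP carrier of germ cell mitochondria, followed Mael and Ddx4 rather than Dazl. It was at 0.361 and 0.590 FPKM in mESCs, 3.80 and 3.76 FPKM in EpiLCs, 3.54, 1.82 and 0.0388 FPKM in Epiblastoids by day and 1.88 FPKM at passage 1, and was listed at 0 in all established fPSC, epiblast-derived and EpiSC libraries. Tex101, a glycoprotein of the germ cell surface, reached 1.03 FPKM in a single library, the day 2 Epiblastoids. It was at 0.287 and 0.116 FPKM in mESCs, 0.823 and 0.480 FPKM in EpiLCs, and at most 0.0539 FPKM in the 7 fPSC libraries, 4 of which listed it at 0.

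Tuba3a and Tuba3b encode α-tubulins of the testis. Their coding sequences are 97.0% identical (1312 of 1353 bases), so how reads were shared between them is uncertain. Tuba3a was by far the most abundant member on the per-length FPKM scale, at 276 and 275 FPKM in mESCs, where it made up most of the summed FPKM of the 10 genes of 316 and 328. It stood at 14.8 and 16.9 FPKM in EpiLCs, 15.7, 4.13 and 0.200 FPKM in Epiblastoids by day and 1.93 FPKM at passage 1. The 7 fPSC libraries ran from 0 through a median of 0.134 to 0.266 FPKM. Tuba3b was at 9.85 and 6.18 FPKM in mESCs, 2.44 and 3.18 FPKM in EpiLCs and 1.73, 0.256 and 0 FPKM in Epiblastoids by day, and was listed at 0 in every established fPSC and EpiSC library. Both genes therefore had their highest values in mESCs, with no overlap with EpiLCs.

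**Figure D1:**
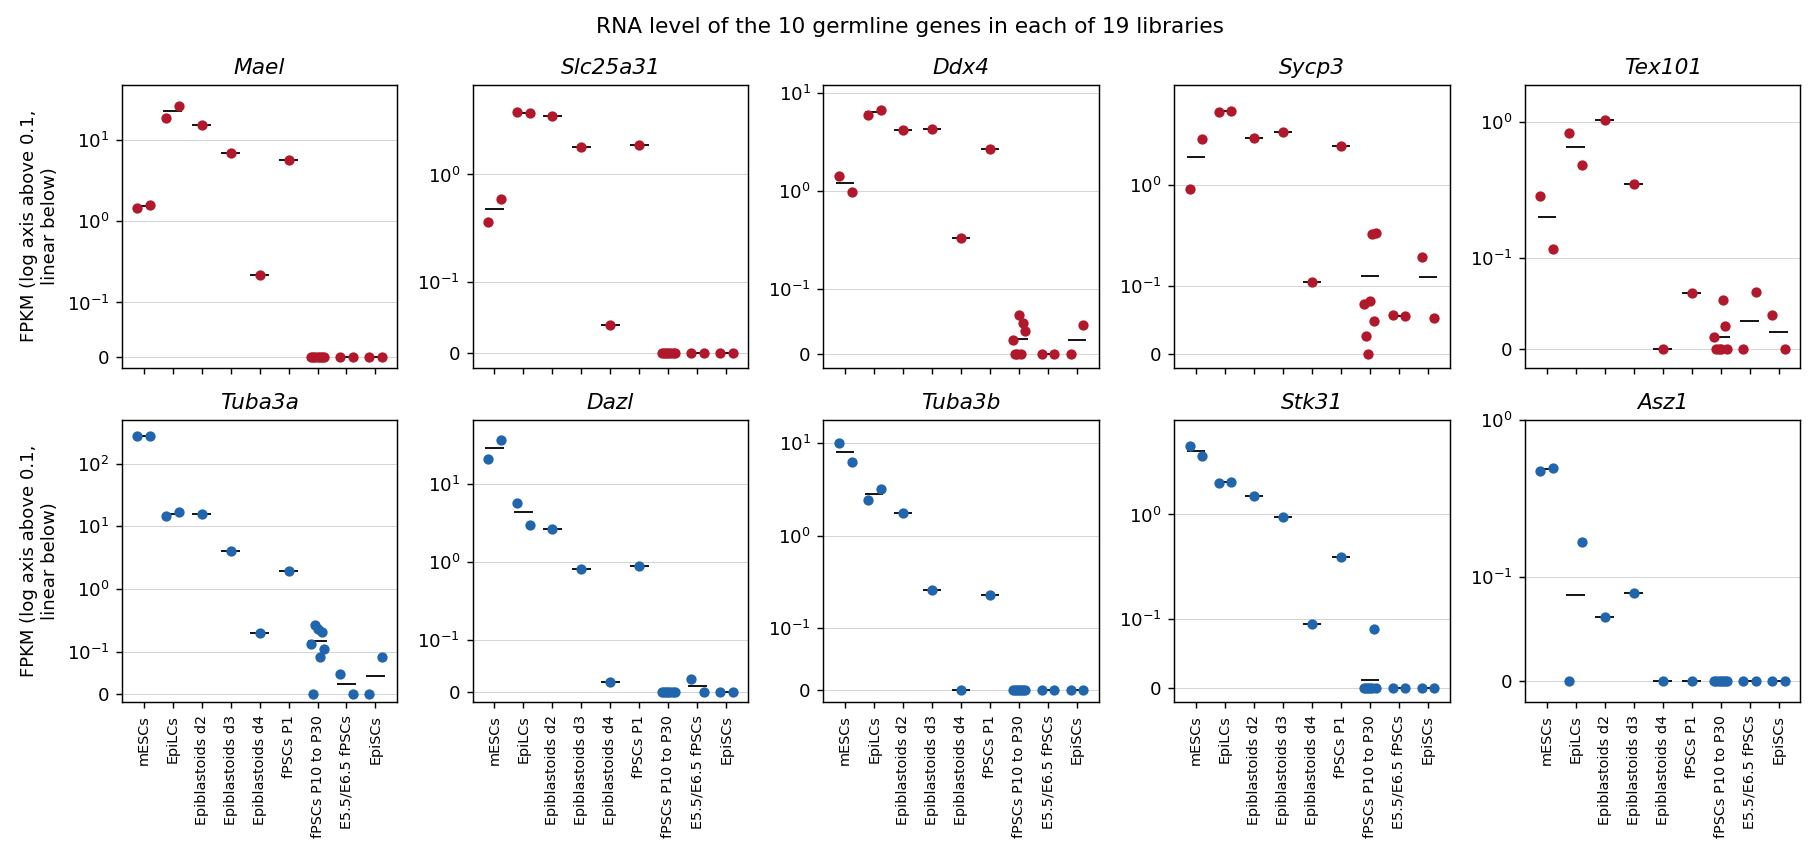
FPKM of each of the 10 genes (y axis, logarithmic above 0.1 and linear below) in mESCs, EpiLCs, EpiSCs, Epiblastoids by day, passage 1 fPSCs, the 7 established fPSC libraries and epiblast-derived fPSCs (x axis). Points are libraries, black bars are group means, red marks the 5 genes with a higher mean in EpiLCs than in mESCs and blue the other 5; the established fPSCs and EpiSCs sit at or near 0 in every panel.

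The summed FPKM of the 10 genes was 59.3 and 67.8 in EpiLCs, 48.6 in day 2 Epiblastoids, 23.0 on day 3 and 1.00 on day 4. Passage 1 fPSCs summed to 16.1 FPKM, with 5 of the 10 genes at 1 FPKM or more. The 7 established fPSC libraries summed to between 0.0265 and 0.483 FPKM and the EpiSCs to 0.230 and 0.185 FPKM, with none of the 10 genes at 1 FPKM. Passage 20 of the CMT line had 9 of the 10 genes listed at 0, as did passage 30.

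The 10 genes parted between the naive and the EpiLC state, which is given as a description. On the log2(FPKM + 1) scale, EpiLCs minus mESCs was 3.20 ± 0.14 for Mael, 1.74 ± 0.12 for Ddx4, 1.70 ± 0.10 for Slc25a31 and 1.22 ± 0.26 for Sycp3 (estimate ± SE, n = 2 and 2, limma). It was −4.04 ± 0.18 for Tuba3a, −2.49 ± 0.24 for Dazl, −1.22 ± 0.17 for Tuba3b and −0.73 ± 0.11 for Stk31. Of the 8 members tested 4 were called higher and 4 lower (fold of 1.5 or more, adjusted p under 0.05 by Benjamini-Hochberg), where 29.6% of all 12513 genes tested were called, 12.2% higher and 17.4% lower. As earlier results of these data were known when the members were chosen, these estimates and counts are given as a description. In the fitted groups Slc25a31 reached 1 FPKM in EpiLCs alone, and Ddx4 and Sycp3 also needed an EpiLC library to pass the filter. The mean FPKM ratio of EpiLCs to mESCs ran from 0.0575 for Tuba3a and 0.149 for Dazl to 5.28 for Ddx4, 7.95 for Slc25a31 and 14.7 for Mael, and was 3.24 for Tex101 and 0.172 for Asz1, the pair under the filter. The Sycp3 call was lost at a pseudocount of 0.1, where the difference was 1.65 on the log2 scale, and its estimate ran from 0.73 to 1.72 with 1 library left out, the mESC libraries lying at 0.910 and 2.79 FPKM. Of the naive markers 6 of 6 were called lower in the same comparison, and their part in the members' values was not tested.

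**Figure D2:**
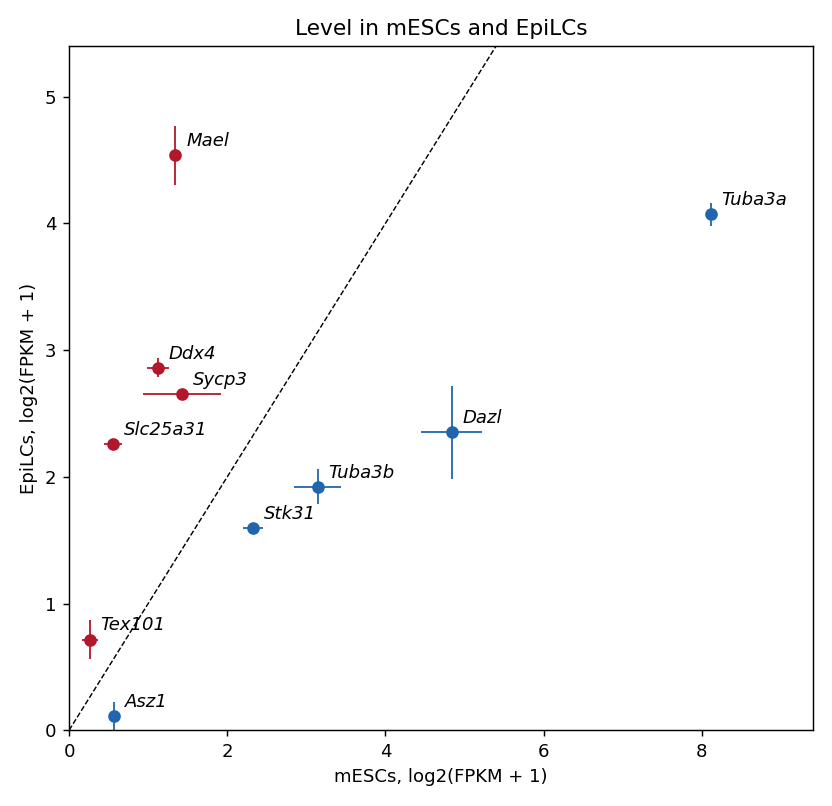
Level of the 10 genes in mESCs (x axis) and EpiLCs (y axis), both as log2(FPKM + 1), with points at the mean of 2 libraries, bars to both libraries and a dashed line of equality. Mael, Ddx4, Slc25a31, Sycp3 and Tex101 (red) lie above the line and Tuba3a, Dazl, Tuba3b, Stk31 and Asz1 (blue) below it.

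The Epiblastoids showed when the RNA went, with 1 library at each day and no replicate check. The day 4 library is of the irregular colonies and not of rosettes. The part of this change of culture in the day 4 values was not tested. The members did not lose it alike. On day 3 Ddx4 stood at 102% and Sycp3 at 115% of its day 2 FPKM, against 63.7% for Stk31, 51.6% for Slc25a31, 45.5% for Mael, 30.8% for Dazl, 26.3% for Tuba3a and 14.8% for Tuba3b. By day 4 all 10 were under 8% of day 2: Ddx4 held 7.83%, Stk31 6.19%, Sycp3 3.76%, Mael 1.40%, Tuba3a 1.27%, Slc25a31 1.10% and Dazl 0.705%, while Tex101, Asz1 and Tuba3b were listed at 0. The naive list summed to 320, 192 and 14.1 FPKM on the same days. The passage 1 fPSC library lay between the day 3 and day 4 values for 7 of the 10 genes, just above day 3 for Dazl and Slc25a31, and at 0 for Asz1.

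Passages 1 and 10 of the CMT line bracket the loss in culture. By the paper these fPSCs were made from mESCs, so EpiLCs are a reference here and not their source. As a share of the EpiLC mean, passage 1 stood at 49.8% for Slc25a31, 45.9% for Sycp3, 42.8% for Ddx4 and 24.9% for Mael. The share was 20.7% for Dazl, 12.2% for Tuba3a, with Stk31 between these, 9.49% for Tex101 and 8.21% for Tuba3b, and Asz1 was at 0. Mael, Slc25a31 and Ddx4 lay above both mESC libraries at passage 1, Sycp3 between them and the other members below both. The 3 genes with the largest share of the EpiLC mean were 3 of those higher in EpiLCs than in mESCs. At passages 10, 20 and 30 no member reached 0.3 FPKM.

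**Figure D3:**
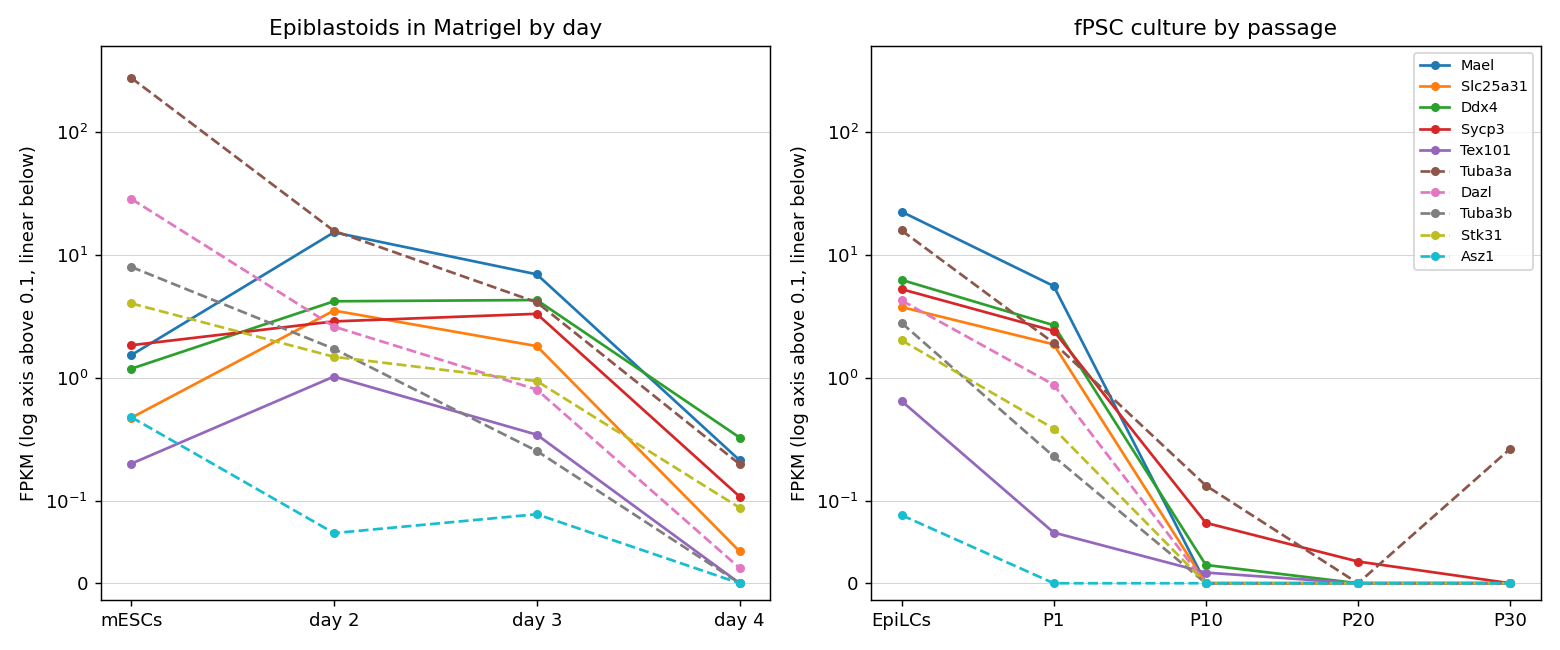
FPKM (y axis, logarithmic above 0.1 and linear below) of the 10 genes across mESCs and Epiblastoids on days 2, 3 and 4 (left) and across EpiLCs and CMT fPSC passages 1, 10, 20 and 30 (right). The mESC and EpiLC points are means of 2 libraries and the others 1 library. EpiLCs are drawn for reference and are not the source of the fPSCs. Solid lines are the 5 genes with a higher mean in EpiLCs than in mESCs. All 10 lines end at or below 0.329 FPKM on day 4, the Ddx4 value, and lie under 0.3 FPKM from passage 10 on.

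Established fPSCs and EpiSCs were compared as the pair of off states. None of the 8 members tested was called and none had an unadjusted p under 0.05 by limma, where 32.3% of all genes were called, 13.3% higher in fPSCs and the rest lower, but the choice of members as near 0 in both groups fixed this and nothing is read from it. The difference fPSCs minus EpiSCs on the log2(FPKM + 1) scale was 0.14 ± 0.14 for Tuba3a (95% interval −0.18 to 0.45), 0.00 for Sycp3 (−0.45 to 0.44), 0.00 for Ddx4 (−0.20 to 0.20) and 0.02 for Stk31 (−0.18 to 0.21). Both groups lie at the floor of the measurement, so these intervals bound the difference near 0 FPKM and say nothing of a ratio. Of the 7 fibroblast markers tested, 6 were lower in fPSCs than in the feeder-grown EpiSCs, whose part in these values was not tested. Epiblast-derived fPSCs were likewise compared with the 7 mESC-derived libraries. None of the 8 members was called or had an unadjusted p under 0.05 by limma, where 0.915% of 12562 genes were called, 0.446% higher and 0.470% lower, with −0.08 for Sycp3 (−0.50 to 0.34), −0.16 for Tuba3a (−0.46 to 0.13) and 0.02 for Dazl (−0.38 to 0.42). The choice of members by low values in fPSCs bears on this comparison as well.

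Against EpiLCs, 8 of the 8 members tested were called lower in fPSCs and 8 of 8 in EpiSCs, a count that the choice of members fixed and from which nothing is read, beside 8.15% of all genes called lower and 5.66% higher in fPSCs (13.8% in all) and 15.5% lower and 20.4% higher in EpiSCs (35.9% in all). Against mESCs 7 of the 8 were called lower in fPSCs and 7 in EpiSCs, beside 23.0% of all genes called lower and 17.3% higher in fPSCs (40.3% in all) and 24.7% lower and 23.1% higher in EpiSCs (47.8% in all). Slc25a31 was the exception in both, with a difference of −0.56 on the log2 scale between fPSCs and mESCs and a fold under 1.5, its mESC values being 0.361 and 0.590 FPKM.

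DNA methylation in fPSCs at passage 10 was given as a fraction of methylated reads in windows of 100 bases, with no coverage, so no interval can be set on a value. For methylation and for either histone mark 2 replicates were labelled and 1 table was deposited, which leaves no replicate spread either. The mean over the windows within 1000 bases of the gene start was 0.966 ± 0.0382 for Mael (SD over 14 windows), 0.964 ± 0.0569 for Tuba3a (14 windows), 0.958 ± 0.0473 for Slc25a31 (17 windows) and 0.939 ± 0.111 for Ddx4 (14 windows). These 4 stood between percentiles 91.0 and 97.7 among the 21806 protein-coding promoters with a methylation value. It was 0.929 for Stk31, 0.924 for Sycp3, 0.901 for Tex101, 0.897 for Tuba3b, 0.799 for Asz1 and 0.667 for Dazl. All 10 promoters were at 0.5 or more, and 8 at 0.8 or more, beside 42.7% and 33.1% of all promoters. The median of the 10 was 0.927 and that of all promoters 0.357. Within 250 bases of the start the fraction was between 0.860 for Ddx4 and 0.996 for Slc25a31, and Dazl stood at 0.944. The lower value of Dazl therefore came from further away. RefSeq promoter sequences of the 10 genes (GRCm38.p6) each matched mm9 once, with starts 0 to 206 bases from the annotated ones, and around those starts the median methylation was 0.923.

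Within 1000 bases Dazl varied most among its windows, with an SD of 0.431 over 20. Its 6 lowest windows, which are neighbours at chr17:50431901-50432500 in mm9, lay 474 to 974 bases into the gene and held fractions of 0.18, 0, 0, 0, 0 and 0.1, in order of coordinate. By the annotation they cover introns and an exon of Dazl, the middle pair of windows touching the exon. H3K4me3 there was 1.24 RPKM (reads per kilobase, scaled to the mapped reads) in the window farthest from the start, 0 in the next 3 and 2.49 in the last 2. Asz1 had 1 such window, chr6:18059901-18060000, 889 bases upstream of its start at a fraction of 0.05. The other 8 promoters had no window under 0.33 within 1000 bases, and Mael none under 0.9. Sycp3 gave the 0.33, and its lowest values outside this range lay between 1000 and 2000 bases upstream.

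**Figure D4:**
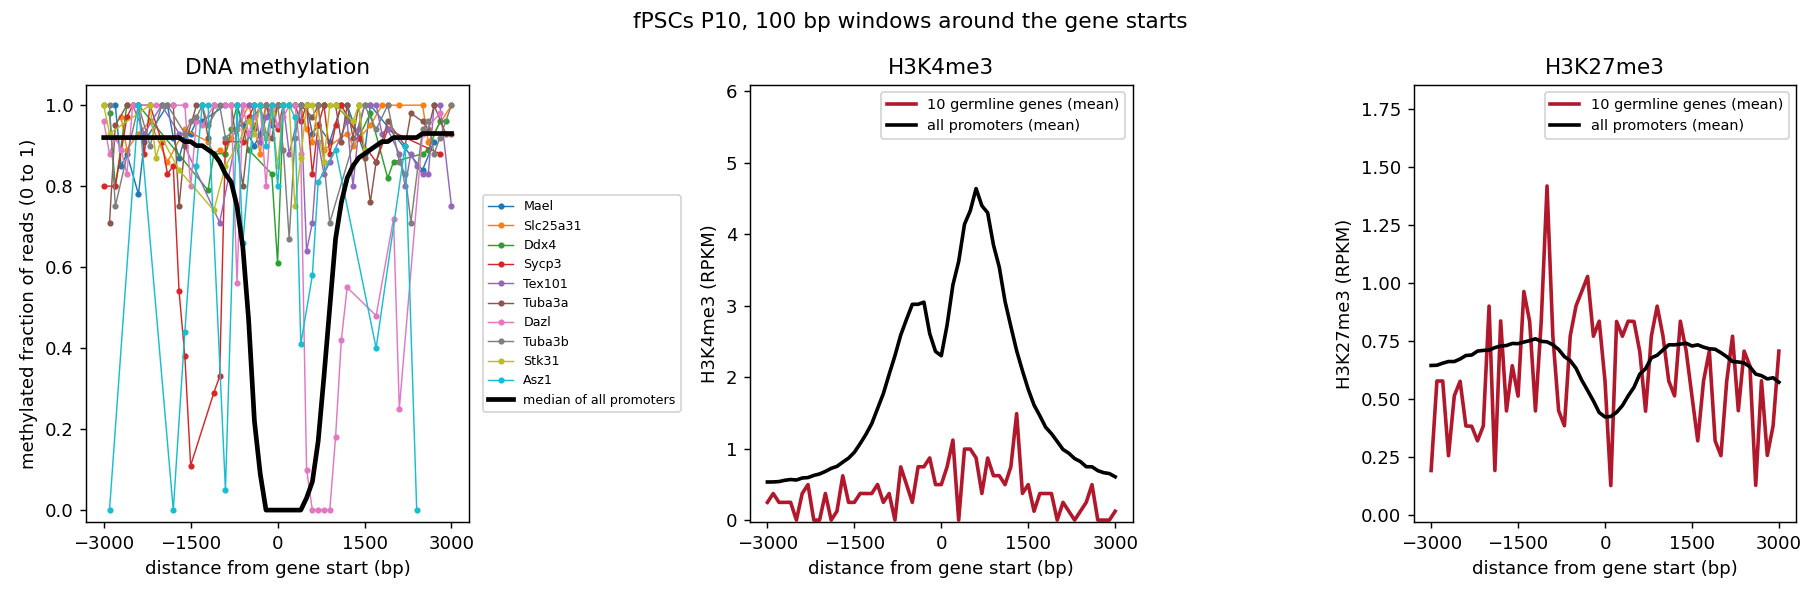
Windows of 100 bases around the gene starts in fPSCs at passage 10, by distance from the start in bases (x axis). Left, methylated fraction of reads for each of the 10 genes (coloured) and the median of all promoters (black), which falls to 0 at the start while the 10 genes stay high. Middle and right, H3K4me3 and H3K27me3 in RPKM as means over the 10 genes (red) and over all promoters (black, each window capped at its 99th percentile); the 10 genes peak at 1.49 RPKM of H3K4me3 against 4.64 for all promoters.

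H3K4me3, the mark of active and poised promoters, was low at the 10 genes. The mean within 1000 bases was 1.49 RPKM at Dazl, 0.933 at Tuba3a, 0.684 at Tuba3b, 0.683 at Mael, 0.559 at Tex101, 0.558 at Sycp3, 0.498 at Ddx4, 0.310 at Slc25a31, 0.310 at Stk31 and 0.062 at Asz1. The median of the 10 was 0.559 RPKM and that of all promoters 2.61 RPKM, and all 10 lay at or below percentile 41.7. H3K27me3, the polycomb mark, spread more widely, from 0.128 RPKM at Sycp3 to 1.77 RPKM at Tex101 and 1.22 RPKM at Dazl. Its median was 0.611 RPKM over the 10 and 0.289 over all promoters. The smallest value above 0 in a window was 1.24 RPKM for H3K4me3 and 0.64 RPKM for H3K27me3, so these means rest on few reads and neighbouring ranks are not distinguishable.

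The 10 promoters differed in how CpG-rich they are. The ratio of observed to expected CpG within 500 bases of the start was 0.754 in Slc25a31, 0.747 in Ddx4, 0.740 in Dazl, 0.733 in Stk31, 0.690 in Mael, 0.653 in Sycp3 and 0.606 in Asz1, and lower in Tuba3a (0.515), Tuba3b (0.470) and Tex101 (0.436). The first 7 are thus at 0.6 or more, as were 10068 of all promoters. In that CpG-rich class the median methylation was 0.157, 3.79% of promoters were at 0.5 or more and 1.70% at 0.8 or more. Mael, Sycp3, Slc25a31, Stk31 and Ddx4 were among the 171 CpG-rich promoters at 0.8 or more. Below a ratio of 0.4 the median was 0.890 and 74.3% of promoters were at 0.8 or more. Tuba3a, Tuba3b and Tex101 belong to the class between, from 0.4 to 0.6, in which the median was 0.356 and 20.5% of promoters were at 0.8 or more. Of the CpG-rich promoters at 0.8 or more, 87 belong to genes with an FPKM row, and 79 of these (90.8%) had a mean under 1 FPKM in the 7 fPSC libraries, against 17.9% of the 8524 CpG-rich promoters under 0.5. Among those 87 genes were the 5 members just named, which were chosen by such values, and 18 further germline genes of the lists used here. Of the 87, 45 had a mean of at least 1 FPKM in mESCs or EpiLCs, against 7271 of the 8524. Many of the 87 were thus low in the early states too, and the shares in fPSCs are not read as RNA lost.

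**Figure D5:**
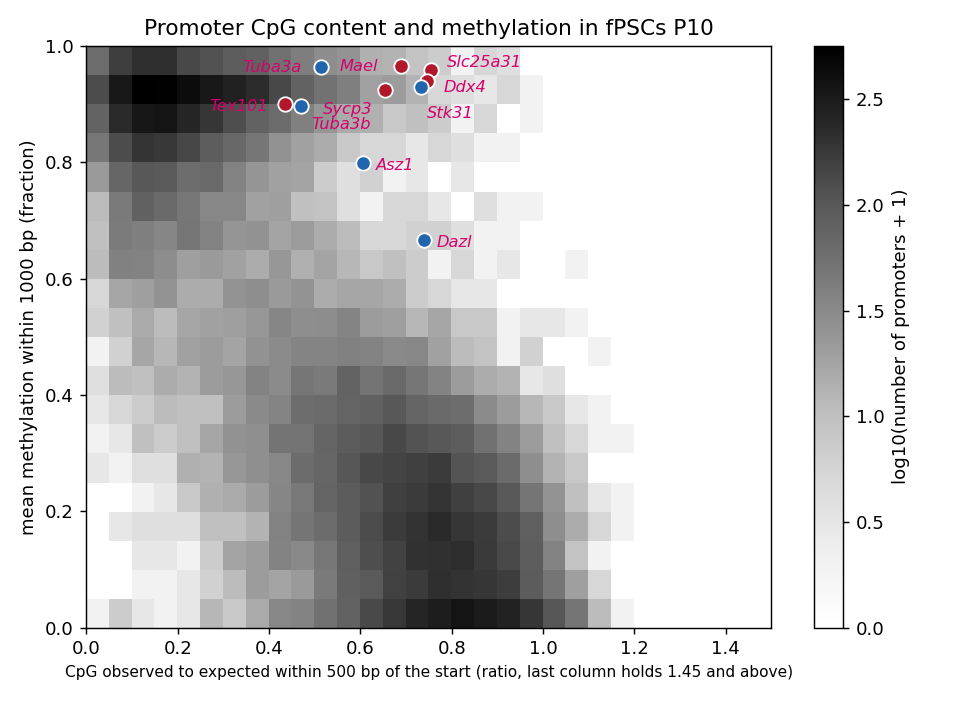
Ratio of observed to expected CpG within 500 bases of the start (x axis) and mean methylated fraction within 1000 bases (y axis) in fPSCs at passage 10, with all promoters as grey cells (log10 of their number plus 1) and the 10 genes as points (red, higher mean in EpiLCs than in mESCs; blue, the other 5). Of the 10, 7 lie at a ratio of 0.6 or more, above most promoters of that class, whose median methylation is 0.157.

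The E2F-type letters GCGGGA, on either strand and in the 300 bases printed above, were held by 24.5% of all promoters, CACGTG by 7.78% and both by 2.53%. In the 10 promoters no occurrence of one motif overlapped the other. Mael held CACGTG 223 bases before the start, TCCCGC 143 bases before it and GCGGGA 11 bases after it. Sycp3 held GCGGGA 129 bases before the start and CACGTG 46 and 25 bases before it, Ddx4 GCGGGA 136 and CACGTG 29 bases before it, and Slc25a31 CACGTG 77 bases before and TCCCGC 36 bases after it. Stk31 held CACGTG alone, Tuba3a TCCCGC alone, and Dazl, Tex101, Asz1 and Tuba3b neither in this window. The 4 promoters with both motifs were those of the 4 tested members called higher in EpiLCs than in mESCs, a match seen only after the values were known. Across all 401 tested genes with both motifs, 205 had a higher and 196 a lower mean in EpiLCs, with a median difference of 0.02 on the log2 scale beside −0.06 for the 6330 genes with neither. Among the other tested germline genes Hormad1 and Sycp1 held both and split, 1 higher and 1 lower.

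The other germline genes were described from 3 lists, of the piRNA pathway (18 genes), meiosis (23 genes) and other germ cell functions (19 genes), 60 in all with 37 tested. They are not independent of the members' choice. Against EpiLCs, 30 of the 37 fell in fPSCs and 0 rose by limma with Benjamini-Hochberg adjustment, 8 of 11 in the piRNA list, 11 of 13 in the meiosis list and 11 of 13 in the last. Of all genes, 8.15% were called lower and 5.66% higher. Many of the 37, those named next included, reached 1 FPKM in mESCs or EpiLCs alone. The filter left such genes little but to fall, and nothing is read from the count. The median of the 37 was −1.37 on the log2(FPKM + 1) scale beside 0.01 for all genes. The steepest falls included Rpl10l, a ribosomal protein gene of spermatocytes, by 5.00 ± 0.18 (SE). It is a near copy of Rpl10 and so uncertain. Hsf2bp, which acts in meiotic recombination, fell by 3.96 ± 0.14. Tex19.1, a repressor of retrotransposons, fell by 3.44 ± 0.16 and Fkbp6, a chaperone of the piRNA pathway, by 3.39 ± 0.11. From mESCs to EpiLCs, 7 of the 37 rose and 19 fell (limma), beside the 12.2% and 17.4% of all genes given above. With 1 library left out the count that rose was 2 (without EpiLC replicate 2) to 5 and the count that fell 12 (without mESC replicate 2) to 19. Taf7l, a TFIID subunit of the testis, rose by 1.91 ± 0.10, from 0.371 and 0.582 to 4.27 and 4.84 FPKM. It was at 0 in EpiSCs and at most 0.0199 FPKM in fPSCs, the course Mael and Slc25a31 took. As it passed the filter through EpiLCs alone, its rise is a description.

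Between fPSCs and EpiSCs, 3 of these 37 differed, beside 32.3% of all genes, and 7 had an unadjusted p under 0.05. Many of the 37 were at the floor in both groups, so nothing is read from the low count. Syce2, of the central element of the synaptonemal complex, was higher in fPSCs by 1.62 ± 0.34 (limma, adjusted p = 0.00283). It was at 12.0 to 14.5 FPKM in the total RNA fPSCs and 15 to 28.3 in the NEBNext ones, against 5.44 and 4.87 in EpiSCs. Tdrd5, of the piRNA pathway, was higher by 0.90 ± 0.32 (limma, adjusted p = 0.0451). It was at 0.663 to 0.809 FPKM in the total RNA fPSCs and 1.43 to 2.42 in the NEBNext ones, against 0.211 and 0.255 in EpiSCs. The EpiSCs were made by the total RNA protocol, and the part of the kit in the Syce2 and Tdrd5 values was not tested. Rec8, the meiotic cohesin, was lower by 0.70 on the log2 scale (limma, adjusted p = 0.000249), at no more than 0.0735 FPKM against 0.723 and 0.617. Their promoters followed the members' only in part. Of the 57 genes with a promoter, 42 were at a methylated fraction of 0.8 or more. None of the 42 reached 1 FPKM in the mean of the 7 fPSC libraries, though Tdrd7, at 0.861, held 1.33 FPKM at passage 24. Some of the 42, such as Pgk2, Piwil1, Piwil4, Brdt and Sohlh1, were under 1 FPKM in every mESC and EpiLC library too. The share among all promoters at 0.8 or more was not computed, so the count is not read as RNA lost. Of the 8 under 0.5, 3 reached a mean of 1 FPKM in the 7 fPSC libraries, namely Mnd1 at a fraction of 0.307, Syce2 at 0.444 and Tdrkh at 0.416. Of the 7 in between, Pld6 did so, at 0.569. Mnd1, which pairs with Hop2 in strand exchange, was at 11 to 30.2 FPKM in fPSCs, a level no member approached. Dkkl1, Msh5, Prdm9, Spo11 and Stag3 stood under 0.5 and under 1 FPKM, so a low fraction did not go with RNA in each case.

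Of 8 genes of DNA methylation and its removal, 3 rose and 1 fell from mESCs to EpiLCs (limma), beside 12.2% and 17.4% of all genes. From EpiLCs to fPSCs 0 rose and 2 fell (limma), beside 5.66% and 8.15% of all genes. With 8 genes such counts are not read as a result about the list. Dnmt3b was at 14.4 and 13.4 FPKM in mESCs, 629 and 693 FPKM in EpiLCs, 361 to 595 FPKM in fPSCs and 121 and 126 FPKM in EpiSCs. Dnmt3a was at 2.73 and 0.404 FPKM in mESCs, 117 and 107 FPKM in EpiLCs, 18.9 to 40.4 FPKM in fPSCs and 16.6 and 16.0 FPKM in EpiSCs. From mESCs to EpiLCs the differences were 5.47 ± 0.23 for Dnmt3b (limma, adjusted p = 2.65e-09), 5.63 ± 0.44 for Dnmt3a (adjusted p = 8.26e-07) and 2.49 ± 0.42 for Dnmt3l, their catalytically inactive partner (adjusted p = 0.000635), while Tet2, which oxidises 5-methylcytosine, fell by 2.45 ± 0.20 (adjusted p = 1.29e-06). Dnmt3l itself took a course close to that of the members. It was at 71.6 and 40.6 FPKM in EpiLCs, 29.7, 3.00 and 0.0113 FPKM in Epiblastoids by day, 0.879 FPKM at passage 1 and at most 0.0276 FPKM in established fPSCs. Between fPSCs and EpiSCs, Dnmt3b was higher in fPSCs by 1.92 ± 0.18 (limma, adjusted p = 4.44e-06) and Tet1 by 1.51 ± 0.30 (adjusted p = 0.00213), while the 8 members tested were at the floor in both. Dnmt1, at 41.1 to 68.7 FPKM over all libraries, did not pass the test between EpiLCs and mESCs (−0.41, limma, adjusted p = 0.0983), nor did Uhrf1 (−0.40, adjusted p = 0.546) or Tet3 (1.05, adjusted p = 0.0898).

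Of 16 genes of PRC1.6 and the H3K9 pathway, all above 1 FPKM in every library, 3 changed from EpiLCs to fPSCs, beside 13.8% of all genes. Pcgf6, the subunit that defines PRC1.6, fell by 0.93 ± 0.18 (limma, adjusted p = 0.00379), and Ring1 and Yaf2, both of PRC1 complexes, rose by 0.87 ± 0.17 (adjusted p = 0.00424) and 0.72 ± 0.20 (adjusted p = 0.0259). From EpiLCs to EpiSCs 4 fell, Pcgf6 among them by 1.87 ± 0.23 (limma, adjusted p = 4.11e-05), and 1 rose, beside 35.9% of all genes. In fPSCs 3 were higher than in EpiSCs and 0 lower, beside 32.3% of all genes, namely Pcgf6 by 0.94 ± 0.18 (limma, adjusted p = 0.00172), Tfdp1, a partner of E2F factors, by 0.80 ± 0.19 (adjusted p = 0.00692) and Cbx3, a heterochromatin protein, by 1.08 ± 0.36 (adjusted p = 0.0337).

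The genes whose course over the 19 libraries was most like the mean standardized level of the 10 members were sought among 7830 candidates that reached 10 FPKM. Pearson's r was 0.986 for Pnma5, 0.983 for Rex2 and Prr23a3, and 0.981 for Pramef12 and Gdf3, a TGF-β family ligand of pluripotent cells. The libraries fall into on and off states, and any gene lost on leaving the early states shares much of this course. Pnma5 had a mean of 18.4 FPKM in mESCs and 11.2 FPKM in EpiLCs and was at most 0.0311 FPKM in fPSCs. Among the members themselves the 45 pairwise values of r ran from 0.21 through a median of 0.689 to 0.995.

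Single fPSCs from 4 clones gave a view that the bulk libraries do not, of 182 cells (46, 46, 46 and 44 by clone) with median totals of 19100, 30700, 33900 and 22600 counts by clone. The tables were made separately for clones 1 and 2 and for clones 3 and 4, 1 column name occurs in clone 3 more than once, and no control cell type is present. Of the members 6, Dazl, Sycp3, Tex101, Asz1, Tuba3a and Tuba3b, are not listed in either table. A missing row was taken as no count, which was assumed and not checked. Read so, 0 of 182 cells allows a share of cells with a count of up to 1.65% (3 counts of the total) or 2.01% by the exact 95% interval. Mael had a count in 2 cells (1.10%, exact 95% interval 0.133 to 3.91%), 1 count in each, and Slc25a31 in 2 cells, with 9 counts in all. Ddx4 had a count in 11 cells (6.04%, 3.06 to 10.6%), with 69 counts in all and 48 of them in 1 cell. Stk31 stood apart from the rest with a count in 35 of 182 cells (exact interval 13.8 to 25.7%) and in every clone, in 12, 7, 11 and 5 cells. Its 333 counts amounted to 28.0 CPM (counts scaled to the total of all cells), and 82 were in 1 cell. The intervals cover counting error only. Pou5f1, which is high in bulk fPSCs, had a count in 17 of 182 cells (9.34%) and Sox2 in 25 (13.7%). A cell without a count is therefore not shown to lack the RNA.

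Stk31 was near the floor in bulk, where 6 of 7 established fPSC libraries listed it at 0, so the methods give different pictures of this gene. Pou5f1, at 462 to 1020 FPKM in the bulk fPSC libraries, gave 6.30 CPM over the single cells, below Stk31, while Dnmt3b gave 1890 and Actb 2220. A count in the single-cell tables is thus not in proportion to a bulk level for every gene, and why it is not was not tested. In clone 2 the cells with a Stk31 count had a median total of 155000 counts against 25400 in the others, in clone 3 149000 against 25000 and in clone 4 63200 against 22500, whereas in clone 1 the medians were 21000 and 17800. Any of the 10 genes was counted in 42 cells (23.1%, 17.2 to 29.9%), and in 27.6% of the 152 cells with at least 2000 genes.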

How the data were processed

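RNA was measured in 19 bulk libraries and in single cells of 4 fPSC clones, and DNA methylation, H3K4me3 and H3K27me3 in fPSCs at passage 10. Per the study's methods and the submitters' processing notes, the authors made the FPKM table with cutadapt 1.11, TopHat2 2.1.1 and Cufflinks 2.1.1 on mm9, the RPKM tracks of the histone marks with Trim Galore and Bowtie2 2.2.2, the methylated fraction per window with BS-Seeker2, and the single-cell counts from Smart-seq2 reads with the Drop-seq tools. The deposited FPKM keep no depth, and the deposited fractions come without coverage.

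Of 23608 entries in the FPKM table, 4 whose name is listed 2 times were left out. limma 3.58.1 in R 4.3.3 was fitted with trend to log2(FPKM + 1) of genes that reached 1 FPKM in 2 libraries or more, and a gene was called at a Benjamini-Hochberg adjusted p under 0.05 over all genes tested and a fold of at least 1.5. A fold on this scale understates the change of low genes. In simulated data with 200 genes changed by 1.5 on the log2 scale, 59 to 82% were recovered by comparison. Nothing says that replicates were separate cultures, so p-values measure only the spread between these samples, and the 4 fPSC libraries of the NEBNext kit have no counterpart in the other groups. Promoters were the starts of 22072 of 22380 annotated protein-coding genes in mm9. Genes with a repeated name or off the autosomes and chromosome X were left out. A missing histone value was taken as 0. In chromosome 19, 99.5% of windows with a methylation value held a CpG, against 14.3% of those without. Single-cell shares have exact binomial 95% intervals and a limit of 3 counts for a gene at 0, for counting error only. The deposited barcode file was not used. Scripts ran in Python 3.11.15.

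The members, lists and motifs were chosen with earlier results of these data known. Named genes could be all members and all genes of DNA methylation, and from each other list the 3 highest in mESCs and in fPSCs plus those called between fPSCs and EpiSCs or EpiSCs and EpiLCs where at most 5 were, and not all of these are printed. Taf7l, Mnd1, Ring1, Yaf2 and genes named for a low methylated fraction or for both motifs were added after their values were seen. The genes most like the members were the 5 with the highest r. Alternatives changed the pseudocount, filter, samples, replicate block, window and start annotation.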

Additional observations from a re-analysis of the deposited data

Results flagged for a closer look

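Among 27 genes tested over the 7 established fPSC libraries, 3 had 1 library far from the rest by Dixon's ratio, where chance gives about 1 in 20 for normal data. That rate does not hold for values piled at 0. For Stk31 and Fkbp6 all other libraries were at 0, which fixed the flag whatever the remaining value. Stk31 was at 0.0849 FPKM in BVSC at passage 14 and listed at 0 in the other 6. Dnmt3l was at 0.0276 FPKM in CMT at passage 10, and Fkbp6 at 0.000899 FPKM in CMT at passage 20, both close to 0. In the single-cell tables, which no comparison used, Stk31 had a count in 35 of 182 fPSCs and Ddx4 in 11, both with an exact 95% interval above the 1.65% of cells that a count of 0 allows, or 2.01% by its exact interval.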

How the results depend on the processing

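Differences of single members between EpiLCs and mESCs, fPSCs and EpiSCs, and the fPSC origins kept their side of the threshold under the alternatives in which they were tested, except that Sycp3 was no longer called between EpiLCs and mESCs at a pseudocount of 0.1 (1.65 on the log2 scale), and no called difference changed sign. Slc25a31 fell under the filter between EpiLCs and mESCs with 1 EpiLC library left out. No member passed it with only fPSCs and EpiSCs, or only the fPSC origins, fitted. Estimates that were not called lay near 0 and some changed sign: between fPSCs and EpiSCs, Sycp3 ran from −0.12 with the total RNA fPSCs alone to 0.09 with the NEBNext fPSCs alone and Ddx4 from −0.03 to 0.03 with 1 EpiSC library left out, and between the fPSC origins Sycp3 went from −0.08 to 0.03 with the total RNA fPSCs alone. The counts of called genes over the whole table moved more. Between fPSCs and EpiLCs 1728 genes were called, 3178 with the total RNA fPSCs alone, 2648 with the NEBNext fPSCs alone and 865 to 1823 with 1 library left out. Between fPSCs and EpiSCs the count of 4041 ran from 1523 to 4463, between EpiSCs and EpiLCs that of 4488 from 2425 to 3621, between EpiLCs and mESCs that of 3706 from 2291 to 3019, between EpiSCs and mESCs that of 5980 from 4013 to 4724, and between fPSCs and mESCs that of 5047 from 3413 to 5173. For epiblast-derived against mESC-derived fPSCs the count of 115 became 50 with only these 2 groups fitted, 226 with the total RNA fPSCs alone and 47 to 174 with 1 library left out. Of the other germline genes, the 7 higher and 19 lower in EpiLCs than in mESCs became 2 to 5 and 12 to 19, the 3 higher and 31 lower in fPSCs than in mESCs became 1 to 3 and 24 to 31, and the 30 lower in fPSCs than in EpiLCs became 25 to 30. The cause of these shifts was not tested, beyond the smaller number of samples. The members' median H3K4me3 of 0.559 RPKM was 0.261 over a range around the start wider than 1000 bases and 0.498 within 500 bases, their median H3K27me3 of 0.611 was 0.473 and 0.643, and their median methylation ran from 0.923 to 0.960.

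A replicate block over mESCs, EpiLCs and EpiSCs gave 5196 called genes between EpiSCs and EpiLCs (5357 without a block in the same 3 groups), 4107 between EpiLCs and mESCs (4311) and 6685 between EpiSCs and mESCs (6746), and 6 higher and 18 lower of the other germline genes between EpiLCs and mESCs. It left every member's call between EpiLCs and mESCs as it was. Same-numbered samples deviated together at r = 0.204 between mESCs and EpiLCs, -0.199 between mESCs and EpiSCs and -0.134 between EpiLCs and EpiSCs, so they share only a number. With the EpiSC numbers crossed, 5832 and 7059 genes were called against EpiLCs and mESCs. The crossed pairing, the fits without a block and the RefSeq starts were chosen after seeing the data.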
